A study of Mus musculus with 3 samples.

Results

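The Ace+ Ear2+ Ly6c-low monocytes were the cells of 3 single-cell RNA-seq libraries in which at least 2 of the 4 marker genes Ace, Ear2, Adgre4 and Treml4 had a unique molecular identifier (UMI, a tag that counts each captured RNA once). A cell was kept only if the complement genes C1qa, C1qb and C1qc together held under 0.3% of its UMIs, Ly6c2 had at most 2 UMIs and S100a8 with S100a9 held under 2%. These limits set the cells apart from C1q-positive macrophages, Ly6c-high monocytes and neutrophils. Of 10550 cells that passed the quality limits, 116 met the rule, and they carried 541608 UMIs.

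The libraries came from hearts of C57BL/6 mice operated on at postnatal day 10 and collected 3 days later, at postnatal day 13. P10-sham_vehicle hearts had the operation without an infarct. P10-MI_vehicle hearts had the left anterior descending coronary artery tied to cause a myocardial infarction (MI). Mice of both groups received vehicle. P10-MI_SB225002 mice had the infarct and received SB225002, an antagonist of the chemokine receptor CXCR2. SB225002 or vehicle was injected daily over the 3 days after the operation. All 3 libraries held cells sorted as CD45+F4/80+7AAD- from the infarct and border zones, with tissue of several hearts pooled and the sex of the pups not determined. There was 1 library per condition, so a difference between conditions and a difference between libraries cannot be told apart, and intervals given for such differences cover counting error only. The F4/80 gate also bears on every share below, since a blood monocyte with little F4/80 protein would not enter the sort.

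Ly6c-low monocytes, also called non-classical or patrolling monocytes, crawl along the inner wall of blood vessels and clear debris from it. They arise for the most part from Ly6c-high monocytes under the nuclear receptor Nr4a1, without which few of them form, and they survive with signals through the chemokine receptor Cx3cr1 and the growth factor receptor Csf1r. Of the marker genes, Ace codes for angiotensin-converting enzyme, Ear2 for a ribonuclease of the eosinophil-associated family, Adgre4 for an adhesion receptor of the F4/80 family and Treml4 for a receptor of the TREM family. Ear2 has near-identical relatives in the mouse genome, so its reads may be shared among them.

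Members were found in every library, with 9 in P10-sham_vehicle, 59 in P10-MI_vehicle and 48 in P10-MI_SB225002. Ace was detected in 87 of the 116 cells, Adgre4 in 86, Ear2 in 84 and Treml4 in 61. In the libraries in the same order, Ace was detected in 9, 40 and 38 members, Ear2 in 7, 44 and 33, Adgre4 in 8, 45 and 33, and Treml4 in 6, 30 and 25. The members were chosen by these UMI counts, with those of the C1q, Ly6c2, S100a8 and S100a9 genes, so the values are a description. All 4 markers were detected in 25 cells, 3 in 36 cells and only 2 in 55 cells, and in 21 of those 55 each of the 2 markers had a single UMI. Ly6c2 was at 0 in 105 cells, and no C1q UMI was found in 67. Just outside the rule lay 437 cells with 1 marker, 77 cells over the C1q limit, of which 24 held 0.3% to 0.6% C1q, 22 cells over the Ly6c2 limit and 6 over the S100a8 and S100a9 limit.

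RNA of other lineages set part of the cells apart from their label. At least 2 UMIs of 10 genes of other lineages (among them Cd3e, Cd79a, Ms4a1, Nkg7, Col1a1, Dcn, Kdr and Cdh5) were found in 14 members, 0 in the sham library, 8 after MI and 6 after MI with SB225002. In 10 of these 14 cells Col1a1 and Dcn, genes of fibroblast matrix, summed to 5 UMIs or more. The sorted cells otherwise fell into 55 cells with 3 or 4 markers and no such lineage signal (8, 25 and 22 by library) and 47 cells with 2 markers. The 55 cells are called strict members below. This split was chosen after seeing the data. No doublet caller was run.

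The strict members carried more RNA of Ly6c-low monocyte genes that the rule did not use. Nr4a1 stood at 1478 CPM (UMIs of the gene per 1000000 UMIs of the summed cells; 95% Poisson interval 1311 to 1660) in their summed UMIs, against 562 (475 to 660) in the 2-marker cells and 437 (309 to 599) in the 14 cells with another lineage. Nr4a1 was detected in 51 of the 55 strict members (92.7%), in 34 of the 47 2-marker cells (72.3%) and in 9 of the 14 others (64.3%). The median depths were 2981, 3229 and 6609 UMIs per cell, so the strict members had the highest share of cells with Nr4a1 at the lowest median depth. A summed CPM gives most weight to deep cells. In the MI library the 2-marker cells of 22874 and 23526 UMIs had 0 Nr4a1 UMIs, while a 2-marker cell of 2944 UMIs had 12. The summed values of the 2-marker cells therefore do not describe the shallower cells among them. Pglyrp1, an antibacterial peptidoglycan-binding protein, followed the same order with 912, 313 and 253 CPM, as did Itgal, the integrin chain of LFA-1, with 684, 340 and 218, Gngt2, a G protein subunit, with 1540, 558 and 264, and Fcgr4, an Fc receptor for IgG, with 638, 214 and 69.0.

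Other genes were higher in the 2-marker cells or in the 14 others. Fn1, coding for fibronectin, stood at 353 CPM in the strict members, 4956 in the 2-marker cells and 2862 in the 14 others. Spp1, coding for osteopontin, stood at 1016, 10714 and 103 CPM, and Arg1, coding for arginase, at 10.4, 1486 and 11.5. The Spp1 values rest largely on single cells. In the MI library a single strict member held 176 of the strict members' 178 Spp1 UMIs. A single 2-marker cell held 1993 of the 2684 Spp1 UMIs of all members there. Col1a1, at 10.4, 7.64 and 8057 CPM, is one of the genes that made the split, so its values are a description. Results that rest on the whole member set are therefore given below with those of the strict members. Since markers and other genes of one cell type go together in single cells, the genes outside the rule are not fully independent of it.

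**Figure D1:**
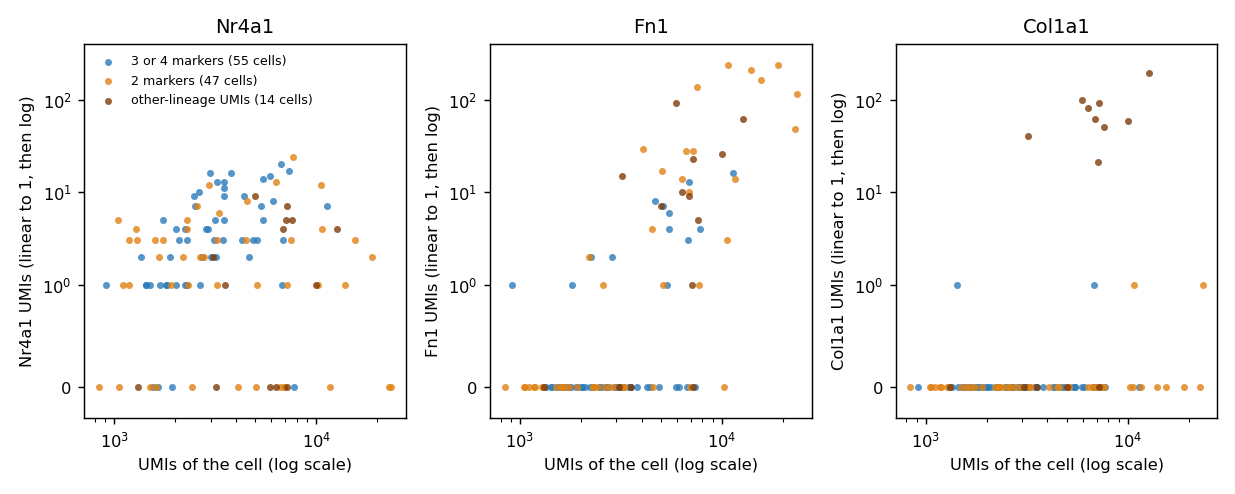
Each of the 116 cells is a point, with its total UMIs on a log axis and its UMIs of Nr4a1, Fn1 or Col1a1 on the vertical axis of the 3 panels, coloured by subset (55 strict members, 47 cells with 2 markers, 14 with another lineage). Nr4a1 was detected in 51 of the 55 strict members and Fn1 in 13 of them, in 20 of the 47 and in 10 of the 14, while Col1a1 helped to define the 14 cells and is shown as a description.

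Marker RNA was also found where it would not be looked for. At least 2 of the 4 markers were detected in 1.56% of 192 B-type cells (median 6424 UMIs), in 2.15% of 465 fibroblast-type cells (median 6383) and in 1.25% of the 7889 cells at or over the C1q limit (median 6869). The fibroblast-type cells among these numbered 0, 6 and 4 by library. They are the 10 members with at least 5 UMIs of Col1a1 and Dcn, so their share is no rate outside the members. The B-type share rests on 3 cells. In the fibroblast-type cells Ace was detected in 52.0%, so there Ace marks no monocyte, while Treml4 was detected in 0.860%. Requiring 3 or 4 markers left 0.521% of B-type, 0.645% of fibroblast-type and 0.456% of C1q-positive cells. Among the cells over the C1q limit the share with 2 or more markers was 0.520% in the sham library, 1.35% after MI and 1.66% after MI with SB225002. Other marker lists were low in the members of the sham library, where the 7 fibroblast, 8 T and NK cell and 7 endothelial markers were all at 0.

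Summed over 7 markers, fibroblast RNA stood at 0, 3578 and 7278 CPM in the members of the sham, MI and MI with SB225002 libraries, and at 0, 84.8 and 51.1 CPM in the strict members. After MI all 7 fibroblast markers were present, in both libraries. Neutrophil markers summed to 69.0, 161 and 547 CPM, resident macrophage markers to 173, 484 and 437, dendritic cell markers to 34.5, 41.8 and 6.52, and B cell markers to 34.5, 142 and 39.1. Of these, 9, 4 and 1 of the 10 neutrophil markers, 7, 1 and 2 of the 10 resident macrophage markers, 9, 6 and 9 of the 10 dendritic cell markers, and 5, 1 and 3 of the 6 B cell markers were at 0 in the libraries in that order. T and NK cell markers summed to 0, 0 and 45.6 CPM, endothelial markers to 0, 13.9 and 58.6, and erythrocyte and platelet markers to 34.5, 13.9 and 19.5. The main differences between libraries are given below also without the 14 members with another lineage, and for the strict members, where the marker number differs too.

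The share of members was 0.383% of 2352 filtered cells in the sham library (exact 95% binomial interval 0.175 to 0.725), 1.71% of 3454 after MI (1.30 to 2.20) and 1.01% of 4744 after MI with SB225002 (0.747 to 1.34). The share after MI was higher than after sham by 1.33 percentage points (Newcombe interval 0.795 to 1.86), and that with SB225002 was lower than after MI with vehicle (difference -0.70 points, interval -1.25 to -0.175). The intervals of the sham library and the MI library did not overlap. These shares lie close to the share of B-type and C1q-positive cells with 2 or more markers given above, which was also higher after MI than after sham among C1q-positive cells. The part of that background in the difference was not tested.

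Stricter limits on markers and other lineages brought the libraries closer, whereas a stricter mitochondrial limit did not. Without the 14 members with another lineage the shares were 0.383%, 1.48% and 0.885%, and the MI library was above the sham library by 1.09 points (0.586 to 1.60) and SB225002 minus vehicle was -0.59 points (-1.11 to -0.105). With 3 or 4 markers the shares were 0.340%, 0.840% and 0.506%, and the MI library was above the sham library by 0.50 points (0.070 to 0.91). SB225002 minus vehicle was then -0.33 points (-0.74 to 0.036), an interval that held 0. Strict members made up 0.340%, 0.724% and 0.464% of filtered cells, and the differences of 0.38 points (-0.032 to 0.78) and -0.26 points (-0.64 to 0.088) had intervals that held 0. With every cell thinned to 2000 UMIs, which left out 111, 366 and 645 shallower cells, the shares were 0.312%, 1.04% and 0.366%. MI minus sham was then 0.72 points (0.26 to 1.19) and SB225002 minus vehicle -0.67 points (-1.12 to -0.27). With a mitochondrial limit of 5% the shares were 0.346%, 1.93% and 0.773%. The differences were then 1.59 points (0.82 to 2.32) and -1.16 points (-1.90 to -0.51). Depth differed between the libraries, with medians of 8520, 6400 and 5654 UMIs over the filtered cells and 3008, 4273 and 2163.5 over the members. Ly6c-high monocytes, cut at 3 or more Ly6c2 UMIs, were deeper, with medians of 15804, 7819 and 9262. A cut on UMI counts depends on depth. With thinned cells the Ly6c-high class held 4, 42 and 52 cells, against 9, 86 and 111 by the rule as given. Among members and Ly6c-high monocytes as one pool, the members were 50% in the sham library, 40.7% after MI and 30.2% after MI with SB225002, with differences of -9.31 points (-34.6 to 16.1) and -10.5 points (-21.5 to 0.707). By the rule as given, the MI library was thus no longer above the sham library with this denominator. SB225002 minus vehicle depended on the setting here. It was -20.9 points (-36.1 to -4.37) with thinned cells and -15.9 points (-27.7 to -3.87) with the mitochondrial limit of 5%. For the strict members it was -5.98 points (-16.6 to 4.49).

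**Figure D2:**
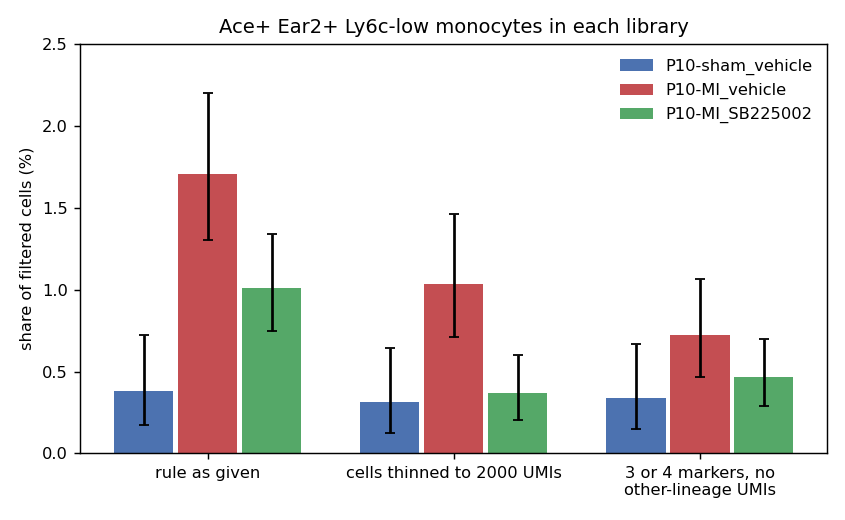
Bars give the members as a percent of filtered cells in each of the 3 libraries, with exact 95% binomial intervals, by the rule as given, in cells thinned to 2000 UMIs and for the strict members. The MI_vehicle bar is the highest in each set of bars, and the gap to the other libraries is smallest for the strict members.

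To see which genes set the members apart from their neighbours, UMIs were summed per library and class and compared with 206 Ly6c-high monocytes, 6921 C1q-positive macrophages and 58 MHC class II-high C1q-low cells by edgeR's quasi-likelihood test with the library as a block. A sum entered with 10 cells or more, so the sham sums of the members (9 cells), Ly6c-high monocytes (9) and MHC class II-high cells (3) did not enter the test, although the pooled levels below include them. These are therefore differences between cells of the 2 infarct libraries. Against Ly6c-high monocytes 704 of 9211 genes were called at a Benjamini-Hochberg adjusted p under 0.05 (7.64%), 457 higher in the members (4.96%) and 247 lower (2.68%). Against C1q-positive macrophages 1472 were called (16.0%), 838 higher (9.10%) and 634 lower (6.88%). Against MHC class II-high cells 432 of 9209 were called (4.69%), 259 higher (2.81%) and 173 lower (1.88%). The strict members had 878, 1293 and 622 calls in a fit of their own. With every sum used, whatever its number of cells, leaving out the MI library left 317, 568 and 77 calls and leaving out the SB225002 library left 226, 840 and 119.

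Of the 457 genes higher than in Ly6c-high monocytes, 224 were also called for the strict members, which is 49.0% of the former and 63.5% of the latter list. The shared calls against C1q-positive macrophages were 492 higher (58.7% of all members' list, 81.6% of the strict list) and 429 lower (67.7% and 62.2%). Called higher against all 3 classes were 131 genes, and 16 of these were in the list of 27 Ly6c-low monocyte genes outside the rule: Nr4a1, Itgal, Spn, Fcgr4, Pou2f2, Klf2, Pglyrp1, Eno3, Fabp4, Cd300e, Cd300ld, Gngt2, Hes1, Ceacam1, Tcf7l2 and Clec4a3. With the strict members the count was 163, of which 18 were in the list, the additions being Lst1 and S1pr5. The list was chosen with earlier results of these data known, so its counts are a description of the members.

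The Ly6c-low monocyte genes, a list chosen with earlier results of these data known, were higher in the members as a group. Against Ly6c-high monocytes 22 of 27 were higher and 0 lower, with a median log2 fold change of 2.12 beside -0.01 over all genes tested. For the strict members 24 of 27 were higher, with a median of 2.55 beside -0.24. Against C1q-positive macrophages 23 were higher and 2 lower (median 2.30), and against MHC class II-high cells 21 were higher and 0 lower (median 1.99). Cx3cr1 and Csf1r were the 2 genes that were lower than in C1q-positive macrophages, with log2 fold changes of -1.29 and -0.76, and neither was called for the strict members.

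Nr4a1, the transcription factor on which these monocytes depend, was highest in the members in each library. It stood at 2381, 913 and 476 CPM in the members of the sham, MI and MI with SB225002 libraries, at 58.2, 239 and 51.5 CPM in Ly6c-high monocytes and at 14.2, 25.9 and 21.2 CPM in C1q-positive macrophages. The groups did not overlap. The log2 difference was 2.32 ± 0.33 (SE) against Ly6c-high monocytes (edgeR quasi-likelihood, adjusted p = 0.000195), 4.70 ± 0.35 against C1q-positive macrophages (adjusted p = 5.89e-08) and 2.80 ± 0.41 against MHC class II-high cells (adjusted p = 0.000609). For the strict members the first of these was 2.87.

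Pglyrp1 stood at 1622, 409 and 560 CPM in the members, at 7.27, 81.3 and 31.8 CPM in Ly6c-high monocytes and at 1.61, 6.53 and 7.81 CPM in C1q-positive macrophages. Its log2 difference from Ly6c-high monocytes was 3.02 ± 0.34 (edgeR, adjusted p = 2.7e-05). Gngt2 stood at 2174, 760 and 847 CPM in the members and at 124, 155 and 93.6 CPM in Ly6c-high monocytes, a log2 difference of 2.58 ± 0.35 (edgeR, adjusted p = 0.000123). For both genes the lowest member sum was above the highest sum of the 2 other classes named.

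Eno3, the muscle form of the glycolytic enzyme enolase, and Cd300e, an activating immune receptor, had almost no RNA in Ly6c-high monocytes. Eno3 stood at 483, 134 and 313 CPM in the members, while 1 UMI was found among all 206 Ly6c-high monocytes. It was not absent elsewhere, with 12.8, 10.8 and 12.5 CPM in C1q-positive macrophages. Cd300e stood at 311, 100 and 182 CPM, with 1 UMI in the Ly6c-high monocytes and 0 in the MHC class II-high cells, against which it was at least 18.5-fold higher by the floor of 3 counts. Hes1, a target of Notch signalling, stood at 83.1 CPM over the pooled members and 3.96 CPM in Ly6c-high monocytes, a log2 difference of 4.30 ± 0.65.

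**Figure D3:**
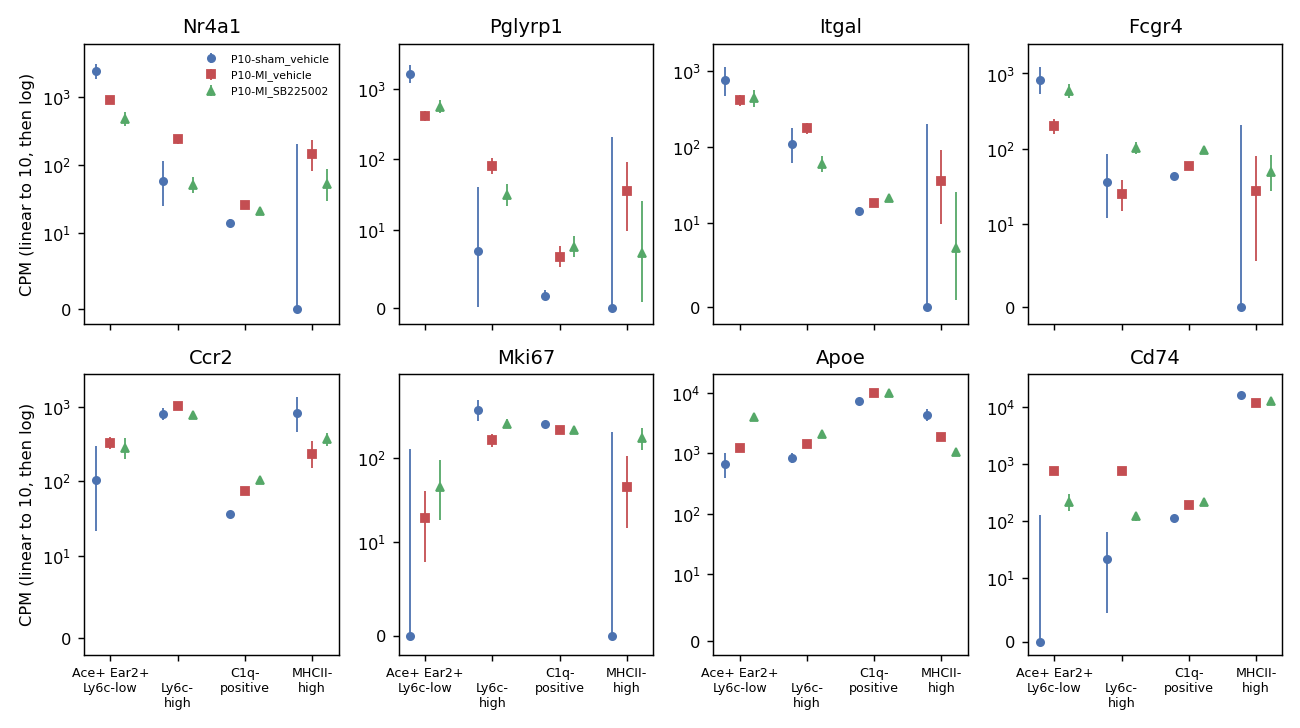
CPM of Nr4a1, Pglyrp1, Itgal, Fcgr4, Ccr2, Mki67, Apoe and Cd74 with 95% Poisson intervals, in each of the 4 cell classes and 3 libraries. Nr4a1, Pglyrp1, Itgal and Fcgr4 are highest in the members in every library, whereas Ccr2 and Mki67 are higher in Ly6c-high monocytes.

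Promoters of genes that were higher together in the members are given from RefSeq (GRCm38.p6, the assembly behind mm10, which the authors used), from 250 bases before to 50 after the start, because motifs of factors of this lineage were searched in them. Of 31 genes looked for (the markers and the Ly6c-low list), 23 had a promoter that was used, with 26 promoters in all. The others had no entry or lay on a chromosome left out of these 26, though not of the background over all promoters. The NBRE AAAGGTCA, the site of NR4A receptors, was in 0 of the 26 and in 1.51% of all 32851 promoters. The CEBP palindrome TTGCGCAA was in 0 of 26 and in 0.183% of all. The KLF motif CCACACCC was in 1 of 26 and in 3.56% of all, and the ETS/PU.1 motif GAGGAAGT, whose letters on the other strand are ACTTCCTC, was in 3 of 26 and in 3.20% of all. Both strands were searched, and no match overlapped another. The 3 below are those of list genes outside the rule with a match, in capitals. The Pglyrp1 promoter lies at chr7:18884440-18884739 on the plus strand with the KLF motif at position -53 from the start. That of Fcgr4 lies at chr1:171018676-171018975 on the plus strand, with the ETS motif at position -24 on the minus strand, and that of Cd300ld at chr11:114989837-114990136 on the minus strand with the ETS motif at position -143. A match is a description of letters and not a site.
Pglyrp1: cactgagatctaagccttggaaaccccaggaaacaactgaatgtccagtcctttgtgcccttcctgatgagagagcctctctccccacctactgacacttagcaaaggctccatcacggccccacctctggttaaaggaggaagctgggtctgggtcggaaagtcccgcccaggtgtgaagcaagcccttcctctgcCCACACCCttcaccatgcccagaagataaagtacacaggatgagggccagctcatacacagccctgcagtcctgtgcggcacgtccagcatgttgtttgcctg
Fcgr4: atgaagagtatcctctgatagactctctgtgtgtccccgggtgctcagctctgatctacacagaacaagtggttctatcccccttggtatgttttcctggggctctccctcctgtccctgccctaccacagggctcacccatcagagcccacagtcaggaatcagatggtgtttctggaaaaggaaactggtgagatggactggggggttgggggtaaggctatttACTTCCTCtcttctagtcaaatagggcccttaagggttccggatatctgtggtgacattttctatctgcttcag
Cd300ld: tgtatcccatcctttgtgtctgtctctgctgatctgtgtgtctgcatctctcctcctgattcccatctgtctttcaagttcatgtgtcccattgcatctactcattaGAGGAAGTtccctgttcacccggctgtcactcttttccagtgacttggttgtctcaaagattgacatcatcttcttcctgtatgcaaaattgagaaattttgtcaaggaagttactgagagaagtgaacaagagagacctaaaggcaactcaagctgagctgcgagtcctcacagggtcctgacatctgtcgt

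Genes of adhesion and homing changed in both directions. Against Ly6c-high monocytes 9 of 20 were higher and 3 lower (median 0.85), and 9 and 4 for the strict members. Itgal stood at 759, 418 and 443 CPM in the members against 109, 179 and 60.8 CPM in Ly6c-high monocytes, and its log2 difference was 1.81 ± 0.34 (edgeR, adjusted p = 0.00248). Its groups did not overlap. Spn, coding for CD43, was higher by 2.79 ± 0.35 on the log2 scale (170 against 24.3 CPM over the pooled libraries), S1pr5, a sphingosine phosphate receptor of circulating cells, by 3.25 ± 0.86, Itgax by 2.76 ± 0.52, Ceacam1 by 1.96 ± 0.40, Cx3cr1 by 1.68 ± 0.40, and Itga4, the integrin chain of VLA-4, by 1.5 ± 0.33. The chemokine receptors Ccr2 and Ccr1 were among the 3 lower genes. Cd44, a receptor for hyaluronan, was at 652 CPM in the pooled members and differed from Ly6c-high monocytes by -0.15 (edgeR, adjusted p = 0.80), whereas it was higher than in C1q-positive macrophages (266 CPM) by 1.03 ± 0.26 (edgeR, adjusted p = 0.00859).

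Fcgr4 stood at 828, 198 and 586 CPM in the members and at 36.4, 24.6 and 103 CPM in Ly6c-high monocytes, a log2 difference of 2.49 ± 0.29 (edgeR, adjusted p = 3.43e-05). The member sums were above the others in each library. Fcgr1, the high-affinity IgG receptor of inflammatory cells, was lower, with a log2 difference of -1.60. Against C1q-positive macrophages 4 of the 6 Fc receptor genes were lower, among them Fcgr3 at -1.40, and Fcgr4 was the 1 that was higher, at 2.12. Cd36, a scavenger receptor for oxidised lipids, was higher than in Ly6c-high monocytes by 2.69 ± 0.37.

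Genes of cell survival were higher than in Ly6c-high monocytes in 5 of 8 cases and lower in 0 (median 2.04). The other comparisons were mixed. Against C1q-positive macrophages 3 were higher and 2 lower (median 0.34), and against MHC class II-high cells 1 was higher and 2 lower (median 0.52). Bcl2 stood at 276, 111 and 124 CPM in the members and at 14.5, 17.2 and 14.0 CPM in Ly6c-high monocytes, and the log2 difference was 2.79 ± 0.36 (edgeR, adjusted p = 7.95e-05), or 3.63 for the strict members. The Bcl2a1 genes rose too, with 2.96 ± 0.50 for Bcl2a1a, 2.40 ± 0.28 for Bcl2a1b and 2.60 ± 0.35 for Bcl2a1d. These 3 are near-identical copies, so how their reads are split is uncertain. Csf1r differed by 0.71 (edgeR, adjusted p = 0.082), and by 1.10 for the strict members, which was called.

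Of the transcription factors, 6 of 18 were higher than in Ly6c-high monocytes and 0 lower, and for the strict members 6 of 17 were higher and 2 lower. Besides Nr4a1 and Hes1 these were Tcf7l2 (2.12 ± 0.27), Pou2f2 (1.92 ± 0.26), Klf2 (1.26 ± 0.31) and Klf4 (1.07 ± 0.25). Against C1q-positive macrophages 8 were higher and 2 lower, the latter including Maf, a factor of resident macrophages, at -3.64 ± 0.45. Cebpb, a factor upstream of Nr4a1 in this lineage, was higher than in C1q-positive macrophages by 2.14 ± 0.27 and differed by 0.37 from Ly6c-high monocytes, which was not called.

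**Figure D4:**
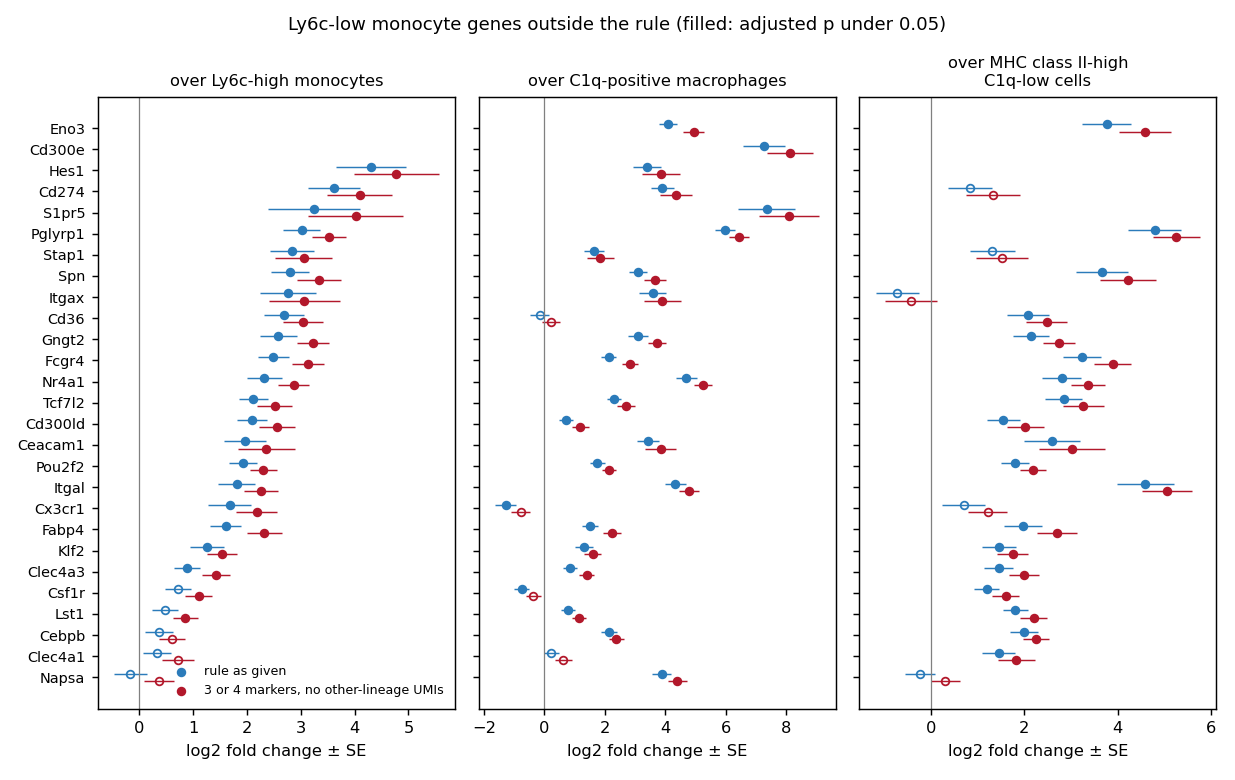
Log2 fold change with its SE of the 27 Ly6c-low monocyte genes outside the rule, for the members over each of the 3 other classes, with all members in blue and the strict members in red. Filled points passed an adjusted p of 0.05, genes with under 3 UMIs in the other class are not drawn, and most points of each panel lie above 0.

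Of the 16 Ly6c-high monocyte genes outside the rule, 7 were lower than in Ly6c-high monocytes and 0 higher (median -0.94), and 9 were lower for the strict members (median -1.70). Ccr2, the receptor that lets monocytes leave the bone marrow, stood at 104, 329 and 280 CPM in the members and at 807, 1031 and 783 CPM in Ly6c-high monocytes, a log2 difference of -1.65 ± 0.28 (edgeR, adjusted p = 0.00106). The groups did not overlap. Mmp8, a collagenase, differed by -2.76 ± 0.50, F13a1 by -2.0 ± 0.35 and Ms4a4c by -2.02. Plac8 was at -0.71 and was not called. Against C1q-positive macrophages the same list pointed the other way, with 10 genes higher and 2 lower (median 1.69), and Plac8 was higher by 3.86 and Ccr2 by 1.75. This was weaker in the strict members, with 5 genes higher and 3 lower (median 0.95). The members thus lay between both classes for Ccr2.

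Cell cycle genes were low in the members. Against Ly6c-high monocytes 8 of the 10 cell cycle genes were lower and 0 higher, with a median of -2.48. Mki67 was found with 0, 7 and 7 UMIs in the members (0, 19.5 and 45.6 CPM), beside 371, 161 and 254 CPM in Ly6c-high monocytes and 252, 214 and 215 CPM in C1q-positive macrophages. Its log2 difference from Ly6c-high monocytes was -2.90 ± 0.41 (edgeR, adjusted p = 0.000197). Top2a was at -3.11 ± 0.58, Ccnb1 at -4.90 and Stmn1 at -2.76. Against C1q-positive macrophages 9 of 10 were lower.

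Of the 12 inflammatory genes 3 were lower than in Ly6c-high monocytes and 0 higher, and the 3 were the chemokines Ccl2, Ccl7 and Ccl4. Ccl2 stood at 0, 64.0 and 143 CPM in the members, at 138, 694 and 1922 CPM in Ly6c-high monocytes and at 916, 655 and 842 CPM in C1q-positive macrophages, and was lower than in Ly6c-high monocytes, with a log2 difference of -3.79 ± 0.47. Ccl7 and Ccl4 were also lower than in both classes, at -2.36 and -2.32 against Ly6c-high monocytes. Against C1q-positive macrophages 3 inflammatory genes were lower and 3 higher (median 0.55), with Il1b at 3.35 ± 0.46, Cxcl3 at 3.20 ± 0.92 and Nfkbia at 1.13 ± 0.28. For the strict members 3 were lower and 1 higher (median -0.67). Of Il1b, 60.5% of the 76 UMIs in the MI library came from 1 cell. Of the interferon-stimulated genes, Cxcl10 and Slfn4 were lower than in Ly6c-high monocytes (2 of 13). Irf7, Isg15 and Ly6e were higher than in C1q-positive macrophages, and 1 gene was lower. For the strict members 4 of 13 were lower than in Ly6c-high monocytes. Against C1q-positive macrophages 1 was then higher and 1 lower.

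Genes of resident macrophages separated the members from C1q-positive macrophages, with 10 of 10 lower (median -4.40) and 9 of 10 for the strict members. Mrc1, the mannose receptor, stood at 104, 78.0 and 32.6 CPM in the members against 2285, 1835 and 1122 CPM, a log2 difference of -4.74 ± 0.33. Cd163, a receptor for haemoglobin, was at -5.29 ± 0.65 (3.69 against 144 CPM over the pooled libraries) and Lyve1 at -4.63. Apoe, the lipid carrier, stood at 656, 1247 and 3968 CPM in the members and at 7512, 9988 and 10112 CPM in C1q-positive macrophages, a log2 difference of -2.13 ± 0.37 (edgeR, adjusted p = 0.000441). It differed from Ly6c-high monocytes by 0.36 (edgeR, adjusted p = 0.62).

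Antigen presentation by MHC class II was also compared with the third class, which was itself cut by H2-Aa, H2-Ab1 and H2-Eb1. Lower presentation genes in the members follow largely from that cut. The values against that class, the p-value included, are therefore a description. All 5 presentation genes that the class rule did not use were lower in the members, and Cd74, the invariant chain, stood at 554 CPM over the pooled members against 12563, a log2 difference of -4.97 ± 0.55 (edgeR, adjusted p = 4.46e-05). Of the members' 267 Cd74 UMIs in the MI library, 61.4% came from 1 cell. Of the 10 dendritic cell markers 7 were lower, and Ccr7 and Flt3 had 0 UMIs in the members, at least 52.7-fold and 19.3-fold lower by the floor. Against Ly6c-high monocytes and C1q-positive macrophages 0 of the 8 presentation genes were called by edgeR and 0 by DESeq2, while 1 and 2 of them had an unadjusted edgeR p under 0.05.

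The genes with the largest fold changes over the whole table depended on which cells were counted. Against Ly6c-high monocytes the highest were led by matrix genes, among them Col5a2, Col8a1 and Loxl1, which had 0 UMIs in Ly6c-high monocytes and were at least 84.5-fold, 72.0-fold and 70.8-fold higher, with Col3a1 at 9.85, Col1a2 at 7.49 and Sparc at 7.20 on the log2 scale. In the MI library 99.2% of the Col3a1 UMIs of the members, and with SB225002 99.6%, lay in the cells with another lineage. For the strict members the highest were Setbp1 (at least 87.2-fold), Eno3, Cd300e, Slc12a2 (7.20), Heg1 (5.66), Hes1, Airn, Pecam1, Ltb, Sparc, Dusp16 and 5430437J10Rik. Pecam1, coding for the endothelial and leukocyte adhesion molecule CD31, stood at 207 CPM in the strict members against 6.94 in Ly6c-high monocytes (log2 4.62), and Dusp16, a phosphatase of MAP kinases, at 550 against 18.8 (log2 4.27). Lowest in both sets were histone and division genes such as Hist1h2ab (-5.19), Pclaf (-5.16) and Cdca3, together with Prtn3, a granule protease of young myeloid cells, at -4.77 ± 0.53 (11.1 against 383 CPM).

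The reparative genes showed the same dependence. Against Ly6c-high monocytes Arg1 was higher in the whole member set by 2.59 ± 0.50 (edgeR, adjusted p = 0.0029) and lower in the strict members, at -3.54. Arg1 stood at 0, 919 and 404 CPM by library, and 65.2% of its 330 UMIs in the MI library lay in 3 of the 9 cells that had any, while 96.8% of its 62 UMIs with SB225002 lay in 1 cell. Fn1 was higher than in C1q-positive macrophages by 1.95 and lower in the strict members, at -0.98, and against Ly6c-high monocytes it was at 1.14 (edgeR, adjusted p = 0.17) and, in the strict members, at -1.92, which was called. Cd9, a tetraspanin, was higher than in Ly6c-high monocytes in both sets, at 2.28 and 1.44. Over the list, 3 of 13 genes were higher and 0 lower than in Ly6c-high monocytes, and 1 higher and 6 lower for the strict members.

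Between libraries only values can be set side by side. A gene was counted where its sum reached 100 CPM in one of the libraries compared. Of 2659 such genes, 315 were at least 2-fold higher after MI than after sham (11.8%) and 775 were at least 2-fold lower (29.1%), with a median log2 ratio of -0.52. With TMM scaling the split was 588 higher (22.1%) and 330 lower (12.4%), with a median of 0.09, so ratios are given with both scalings below where it bears on them. For SB225002 over vehicle after MI, 159 of 2131 genes were higher (7.46%) and 112 lower (5.26%), with a median of 0.12. With TMM scaling 96 were higher and 166 lower (median -0.11), so here the balance turned. The sham sum held 28977 UMIs from 9 cells, beside 359156 and 153475 after MI and after MI with SB225002, so a gene at 100 CPM there rests on about 3 UMIs.

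After MI the Ly6c-low genes stood lower in the members. Of 26 genes, 15 were lower with an interval that left out 0 and 0 were higher (median -1.32, beside -0.52 over all genes). By the same rule 13.6% of all 2659 genes were lower and 6.39% higher. Without the 14 cells with another lineage the list again had 15 lower and 0 higher (median -1.26). With TMM scaling 10 were lower and 1 higher (median -0.71), beside 3.95% and 16.1% of all genes. In the strict members 9 were lower and 1 higher (median -0.53, beside -0.26), where 6.67% of all genes were lower and 3.01% higher. Strict members were 8 of the 9 members in the sham library, 25 of 59 after MI and 22 of 48 with SB225002. Nr4a1 was at 69, 328 and 73 UMIs by library, a log2 ratio of -1.38 (95% counting interval -1.76 to -0.99) for MI over sham, -0.78 (-1.15 to -0.38) with TMM and -0.58 (-0.99 to -0.15) in the strict members. Pglyrp1 was at -1.99 (-2.47 to -1.48) and -0.94 in the strict members, and Fcgr4 at -2.07 (-2.75 to -1.33) and -1.02. Itgal was at -0.86 (-1.51 to -0.15), and with TMM at -0.26, an interval that held 0. In the strict members, whose summed CPM of the whole list was 22492 in the sham library, the sum was 15613 after MI and 15401 with SB225002.

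With SB225002 the genes of the list went different ways. Of 25 genes 9 were higher and 3 lower than after MI with vehicle (median 0.45), beside 14.5% and 12.1% of all 2131 genes by the same rule. With TMM scaling 5 were higher and 3 lower (median 0.23), beside 7.56% and 19.3% of all genes. In the strict members 2 of 27 were higher and 3 lower, beside 6.21% and 5.69% of all genes. Nr4a1 was at -0.94 (-1.33 to -0.57), and at -1.28 (-1.82 to -0.78) in the strict members. It was detected in 8 of 9 members of the sham library, in 52 of 59 after MI (88.1%) and in 34 of 48 after MI with SB225002 (70.8%), and the last of these had the shallowest cells. Ly6c-high monocytes also had less Nr4a1 RNA with SB225002, as given above. Fcgr4 was higher at 1.57 (1.10 to 2.04) and 1.26 (0.66 to 1.87) in the strict members, and Cd36 at 1.34 (0.82 to 1.87) and 1.75. Fcgr4 was detected in 31 of 59 and 33 of 48 cells, and in Ly6c-high monocytes it was also higher with SB225002, at 103 against 24.6 CPM.

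Of the immediate-early genes, which cells switch on within minutes of a stimulus or of handling, 8 of 14 were lower with SB225002 and 0 higher (median -0.52), beside 12.1% and 14.5% of all genes, and in the strict members 7 of 12 were lower, beside 5.69%. Fos was at 5, 373 and 98 UMIs in the members (173, 1039 and 639 CPM), a log2 ratio of 2.59 (1.35 to 4.22) for MI over sham and -0.70 (-1.04 to -0.38) for SB225002 over vehicle. Nr4a1 is a member of this list too. Dusp1, a phosphatase of MAP kinases, was at 242, 471 and 215 CPM, and Klf2, a factor of quiescence, at 759, 685 and 410 CPM with a log2 ratio of -0.74 (-1.16 to -0.33). For MI over sham 1 of the 14, Fos, was higher and 2 were lower, near the 6.39% and 13.6% of all genes. With TMM scaling 5 were higher and 1 lower, beside 16.1% and 3.95% of all genes. In the strict members 4 of 14 were higher and 1 lower, beside 3.01% and 6.67%. Fos was also lower with SB225002 in Ly6c-high monocytes, at 1459 and 696 CPM, and in C1q-positive macrophages, at 917 and 452 CPM. Whether the libraries were handled together is not given in the sources used here.

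The calcium-binding proteins S100a6 and S100a4, which are abundant in Ly6c-high monocytes, were lower with SB225002. S100a6 stood at 2036, 3508 and 1486 CPM and was at -1.24 (-1.45 to -1.04), and S100a4 stood at 1415, 1515 and 554 CPM and was at -1.45 (-1.80 to -1.12). In Ly6c-high monocytes S100a6 stood at 3435 and 3478 CPM in the 2 MI libraries. Of the 11 Ly6c-high genes, 6 were lower with SB225002 and 2 higher, beside 12.1% and 14.5% of all genes. In the strict members 4 of 9 were lower and 1 higher, beside 5.69% and 6.21%. For MI over sham 6 of 10 were higher and 0 lower, beside 6.39% and 13.6% of all genes, with 2 of 9 higher in the strict members, beside 3.01%. Plac8 was at 2278, 1846 and 1329 CPM.

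Apoe had 19, 448 and 609 UMIs by library (656, 1247 and 3968 CPM). Its log2 ratio was 0.93 (0.27 to 1.67) for MI over sham and 1.67 (1.49 to 1.85) for SB225002 over vehicle, and 2.48 (2.17 to 2.79) in the strict members. With SB225002, however, 288 of the 609 UMIs (47.3%) lay in 1 cell and 70.1% in 3 cells, while 9.38% of those of the MI library lay in its top cell. Averaging log values over cells, which limits the weight of single cells, gave 0.37, and thinned cells gave 0.25. For MI over sham the ratio was -0.012 with a mitochondrial limit of 5%. Cd44 stood at 897, 713 and 463 CPM, with -0.33 (-0.92 to 0.31) for MI over sham and -0.62 (-1.02 to -0.24) for SB225002 over vehicle, and -0.57 (-1.18 to 0.02) in the strict members. Ash1l, a histone methyltransferase, stood at 276, 150 and 169 CPM, and both intervals held 0.

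**Figure D5:**
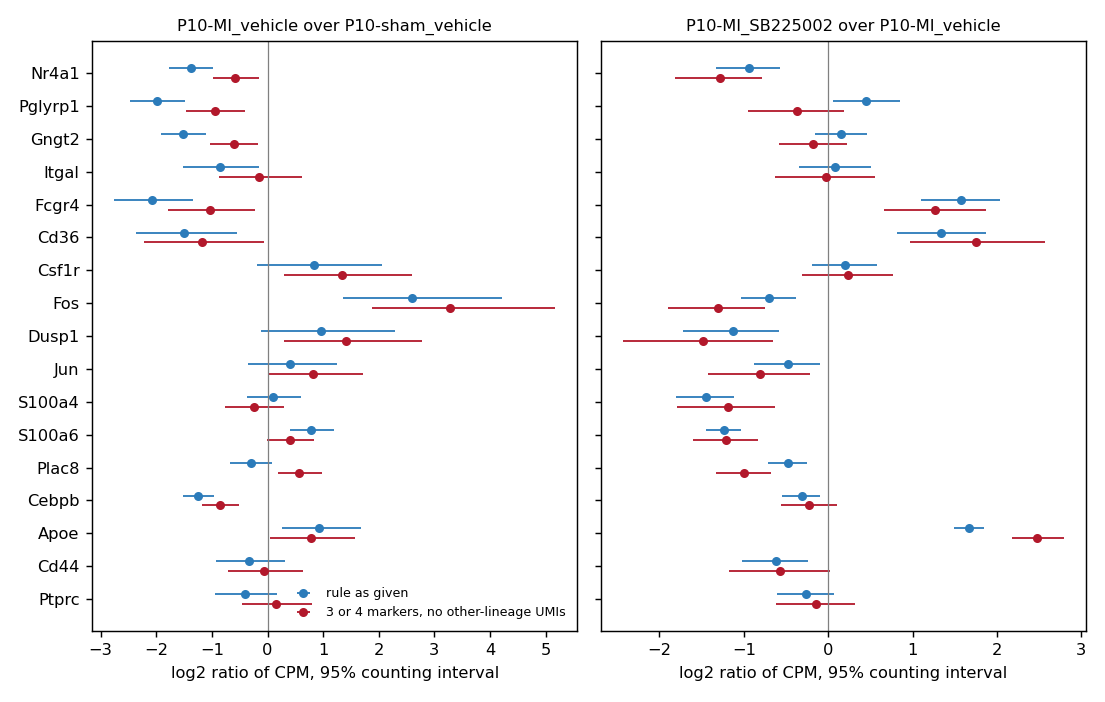
Log2 ratios of CPM in the members with 95% counting intervals for 17 genes, MI_vehicle over sham_vehicle and MI_SB225002 over MI_vehicle, for all members and for the strict members. Nr4a1 lies below 0 in both ratios, while Fcgr4 and Cd36 lie below 0 in the first and above 0 in the second, although Cd36 was at 0.19 in the first with cells thinned to 2000 UMIs and at 1.39 under a mitochondrial limit of 5%.

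Several of the most extreme ratios rested on 1 cell. Spp1 had 0 UMIs in the sham members and was at least 72.2-fold higher after MI, and 74.3% of its 2684 UMIs there lay in 1 cell. For Saa3, at least 63.5-fold higher, 81.4% of 2362 UMIs lay in 1 cell, and it was also the most reduced gene with SB225002 (log2 ratio -9.98). AA467197 (at least 13-fold higher after MI, -7.69 with SB225002) had 38.5% of 483 UMIs in 1 cell, Car4 69.4% of 134 and Stfa3 85.8% of 120. Of the genes higher with SB225002, all 50 Ccl5 UMIs lay in 1 cell, and 98.6% of the Postn and 96.9% of the Acta2 UMIs lay in cells with another lineage. Others were detected in more cells of the MI library. Fn1, at least 36.2-fold higher after MI, was found in 27 of the 59 members, with 17.7% of its 1346 UMIs in the top cell. Most of its UMIs still lay in a few deep 2-marker cells. Those of 18988, 10687 and 13941 UMIs held 238, 235 and 208, and those of 15534, 7508 and 23526 held 164, 137 and 115. Wfdc17 was found in 35 members (25.1% in the top cell) and Tagln2 in 28 (18.1%). Of the genes lower with SB225002, Hopx was found in 21 of the 59 (16.7%) and Ltc4s in 13 (25.4%). The genes lowest after MI, such as Adora3, Chrm3 and Cmya5, had 3 to 6 UMIs in the sham sum.

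Among genes of the sorted proteins, Ptprc, coding for CD45, stood at 1070, 805 and 671 CPM and Adgre1, coding for F4/80, at 173, 136 and 215 CPM, and the intervals of their ratios held 0. Ptprc was lower in the 14 members with another lineage, at 402 CPM, than in the strict members, at 1063. Xist, expressed in female cells, stood at 725, 103 and 169 CPM in the members, and the number of female pups in each pool is not given in the sources used here. The libraries shared 1260 to 1844 cell barcodes by pair, and 0 members had a barcode that was a member in another library.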

How the data were processed

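The authors sorted CD45+F4/80+7AAD- cells, loaded one channel per condition on the BMKGENE DG1000 system and deposited UMI counts per gene and cell, with no normalization. The labels name mm10 and Seurat 4.1.0, and the aligner is not given in the sources used here. The libraries held 3390, 4511 and 5783 barcodes and 29323567, 32498608 and 34235864 UMIs. Cells with 500 to 30000 UMIs, 500 to 5000 genes and under 10% mitochondrial UMIs were kept. Depth sets the precision, with 541608 member UMIs in all, of which 28977 were in the sham library.

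The members and gene lists were chosen with earlier results of these data known. Ly6c-high monocytes had at least 3 Ly6c2 UMIs, C1q-positive macrophages at least 0.3% C1q UMIs, and MHC class II-high cells at least 0.5% H2-Aa, H2-Ab1 and H2-Eb1 UMIs at low C1q. Each class had fewer than 2 of the 4 markers and fewer than 2 UMIs of 10 other-lineage genes, and S100a8 with S100a9 under 2%. UMIs were summed per library and class and tested with edgeR 4.0.16 (R 4.3.3; filterByExpr, TMM, glmQLFit, library block), with Benjamini-Hochberg adjustment over all genes tested. The genes that cut a class were not tested. A few genes of the lists are not reported here by name. These p-values rest on the sums of the 2 infarct libraries, since the lone sham sum that entered, of C1q-positive macrophages, is taken up by its library term. Shares carry exact binomial or Newcombe intervals and ratios exact conditional 95% intervals (scipy 1.17.1), which cover counting error only. Floors use 3 counts over the sum. Named genes were the listed ones with the largest called changes, the 12 highest and 8 lowest of each comparison with at least 100 CPM, the 8 highest and lowest ratios, and Nr4a1, Apoe, Cd44, Ash1l, Ptprc, Adgre1 and Xist. The steps were tested on simulated data. The alternatives were 3 markers, a C1q limit of 0.1%, a mitochondrial limit of 5%, thinning to 2000 UMIs, removal of cells with other-lineage UMIs, a members-plus-Ly6c-high denominator, other scalings and filters, DESeq2 1.42.0, no block and leaving out a library.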

Additional observations from a re-analysis of the deposited data

How the results depend on the processing

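Single settings moved the values as follows, and the cause was not tested unless given. Relative to members plus Ly6c-high monocytes the shares were 50%, 40.7% and 30.2%, and the differences -9.31 points for MI minus sham, which reversed, and -10.5 points for SB225002 minus vehicle. With 3 markers the shares after MI and with SB225002 were 0.840% and 0.506% (MI minus sham 0.50 points), with thinned cells 1.04% and 0.366% (0.72), and for the strict members 0.724% and 0.464% (0.38). The genes called numbered 392 with thinned cells and 446 without other-lineage cells against Ly6c-high monocytes, 796 with thinned cells against C1q-positive macrophages, and 233 without the library block against MHC class II-high cells. Leaving out one library gave 226 to 608 calls against Ly6c-high monocytes, 568 to 1344 against C1q-positive macrophages and 77 to 397 against MHC class II-high cells, with 317, 568 and 77 without the MI library, and 226, 840 and 119 without the SB225002 library. With sums of 10 cells or more, the fits without the MI or the SB225002 library could not be made, since no residual degrees of freedom were left, so these use every sum. For MI over sham, 588 genes were higher and 330 lower with TMM, 527 and 402 with DESeq2 size factors, 40 and 58 with means of logs, and 823 and 1192 at 50 CPM. For SB225002 over vehicle 96 were higher and 166 lower with TMM, which turned the balance. The counts were 1 higher and 21 lower with means of logs, 789 and 350 with thinned cells, 343 and 209 with 3 markers, 496 and 279 at 50 CPM, and 384 and 242 for the strict members.

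Of 2290 values of class comparisons, 2088 kept direction and side of the threshold, 185 kept only the direction and 17 reversed. Against Ly6c-high monocytes Arg1 turned to -3.37 with thinned cells, -3.70 with 3 markers and -3.54 in the strict members, and Igf1 to -0.75 with thinned cells. Against C1q-positive macrophages Fn1 turned to -1.67, -0.74 and -0.98 and Thbs1 to -0.15, -1.37 and -3.56 in the same order, Ms4a4c to -0.032 with thinned cells and Col3a1 to -0.13 in the strict members. Against MHC class II-high cells Saa3 turned to -0.60 with thinned cells, and without other-lineage cells and in the strict members Col3a1 turned to -0.21 and -0.35 and Mgp to -1.08 and -0.49. Of 614 library ratios 491 stayed within the main interval, 113 moved out of it in the same direction or from an interval that held 0, and 10 reversed. For MI over sham these were Apoe (-0.012) and Cd36 (1.39) under the 5% mitochondrial limit, and Cd36 (0.19) and S100a6 (-0.088) with thinned cells. For SB225002 over vehicle they were Wfdc21 (2.68) and Cebpb (0.020) with thinned cells, Postn (-2.20) and Pglyrp1 (-0.028) with 3 markers, Pglyrp1 (-0.37) in the strict members and Plac8 (0.081) under the 5% limit. No paired analysis was possible because each condition had 1 library, which holds for comparisons between conditions, while the class comparisons were fitted with the library as a block. The 9 sham members limit what the sham library can show.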
